A study of Rattus norvegicus with 8 samples.

Results

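The genes described here are the zinc finger protein genes of the rat array, taken by name: every probe other than a control whose gene name starts with Zfp or Znf and then a digit. This rule found 262 probes of 216 gene names, among 30367 probes and 26514 gene names on the array. Zfp37 was singled out earlier for its difference between stressed and control rats in these same data, so its values are given as a description and carry no test. The other members were chosen by name only. Total RNA was hybridised from the lumbar L6S1 spinal cord of 8 male Wistar rats aged 12 weeks, 1 single-colour Agilent array per rat. The 4 stressed rats had water avoidance (WA) stress, a psychological stressor in which the rat stays on a small platform surrounded by water, for 1 h a day on 10 days, and tissue was taken 24 h after the last session. The 4 control rats were handled instead. The cord was flushed from the spine with saline and freed of meninges, and it was measured whole, so fewer cells of a type and less RNA per cell cannot be told apart.

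Zinc finger proteins of the C2H2 kind fold short repeats around a zinc ion, held by a pair of cysteines and a pair of histidines, and each finger reads a few bases of DNA. Many members also carry a KRAB domain, which recruits the co-repressor Trim28 and, through it, heterochromatin proteins and histone methyltransferases that silence genes and transposable elements. Many of the genes lie in clusters that arose by duplication, and most are expressed at low levels. The Zfp and Znf names are not a fold: a few members bind RNA, carry a BTB or RING domain, or have since been renamed. Of the 216 names, 152 matched a RefSeq gene of the GRCr8 assembly by accession, 31 by symbol and 25 by an older name, and 10 matched none, a name with several probes being counted under each way that held. Another symbol is now in use for 88 of them, in most cases Zfp in place of Znf. Zfp364 is now Rnf115, Zfp238 is Zbtb18, Zfp191 is Zfp24 and Zfp278 is Patz1. The names of the array are kept below.

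The 60-base probes of 3 genes are shown because they are the measured stretches of Zfp37 and of called members whose probe holds the cysteine part of a finger. Capitals mark the letters of a finger motif, TGNNNNNNNTGNGGNNANNNNT, which spells the codons of the cysteine pair and of the glycine that often follows it. Positions are those of the array files on the rn4 assembly. The Zfp37 probe lies at chr5:79120801-79120860 on the minus strand, the Zfp263 probe at chr10:12037694-12037753 on the minus strand and the Znf287 probe at chr10:48899640-48899699 on the minus strand.
Zfp37: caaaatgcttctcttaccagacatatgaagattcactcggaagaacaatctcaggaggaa
Zfp263: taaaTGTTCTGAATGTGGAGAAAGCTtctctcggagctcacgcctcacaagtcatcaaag
Znf287: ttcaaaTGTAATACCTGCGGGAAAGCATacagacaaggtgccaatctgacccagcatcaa
The motif stood in 11 of the 262 zinc finger probes (4.20%) and in 63 of the 30367 probes of the array (0.207%). On the opposite strand it stood in 0 zinc finger probes and in 47 of all probes. The Zfp37 probe does not hold it. The motif leaves out the histidine pair and fixes letters beyond the glycine, so a probe without it may still read part of a finger. No genome was given, so exon and UTR were not analysed for any probe. Since fingers repeat within and between these genes, each probe was set against all probes of other gene names. Of the 262 zinc finger probes, 14 share an exact run of at least 16 bases with a probe under another gene name. The longest is 29 bases, in the brightest Zfp853 probe. Some of those names, its partner's included, are bare probe or transcript identifiers, so the partner may belong to the same gene. A signal in these probes may be shared. No such run was found for the Zfp37 probe.

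The values below are log2 processed signals after the array's own 75th percentile was subtracted, so 0 is the level that 75% of the spots fall under. They say how bright a probe was and do not rank genes by abundance, since probes differ in how well they bind. Only probes that rose clearly over background on 4 or more of the 8 arrays were tested. There were 246 such zinc finger probes, which stand for 205 genes, among 23678 probes and 20686 gene names tested in all. The brightest probe stands for a gene in counts. Of the 246 probes, 238 were above background on all 8 arrays and none was saturated. The 11 genes with no tested probe are Zfp217, Zfp236, Zfp334, Zfp352, Zfp352l, Zfp518b, Zfp569, Znf473, Znf494, Znf697 and Znf704. The arrays themselves were uneven in 1 respect that touches every result below: in 64 of 75 members that differed by at least 0.3, control replicate 2 stood nearer the stressed rats than the other control rats. All 8 arrays were on 1 slide, with stressed rats in 1 row and control rats in the other, so row and group cannot be told apart. Of the 14 spinal cord markers on the array, each was above background on all 8 arrays and 1, the myelin gene Mog, was called, where 3.65% of all names were. The log2 of the summed signal of 4 Schwann cell and nerve root markers ran from 2.82 to 6.12 in control rats and from 2.81 to 4.40 in stressed rats, and that of 5 meningeal and fibroblast markers from 0.23 to 2.23 and from 0.28 to 1.82. None of these Schwann cell, nerve root, meningeal or fibroblast genes was called, and their part in the results was not tested.

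Zfp37, a KRAB zinc finger gene, was brighter in every stressed rat than in every control rat. Its log2 signal was -3.56, -3.48, -3.54 and -3.55 in stressed replicates 1 to 4, and -4.64, -4.29, -4.48 and -4.41 in control replicates 1 to 4. The groups do not overlap, the stressed rats lie within a narrow band, and the highest control value is that of control replicate 2. As a share of the 75th percentile the signal was 8.46 to 8.94% in stressed rats and 4.02 to 5.12% in control rats. The means were -3.53 ± 0.035 (SD, n = 4) and -4.45 ± 0.146 (SD, n = 4), a difference of 0.92 with an SE of 0.086. The probe has 2 spots at distant places on the array, which gave 0.84 and 0.99. Zfp37 is the 144th of the 205 genes by signal, so its difference comes from a dim probe.

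Among the 205 zinc finger genes Zfp37 was the third by difference, just under Zfp263 and Znf608, both at 0.98. Dim probes varied more than bright ones, so Zfp37 was also set beside probes like it. Its Start, the place of the probe counted in bases from the 5′ end of the transcript, is 1815. Of the 667 tested probes within 0.5 log2 units of its signal and with a Start from 1500 up to 3000, 27 had a difference at least as large, Zfp37 itself included. The median of these 667 was 0.15. The 25 zinc finger probes among them had a median of 0.11, and 2 of the 25 reached the difference of Zfp37. Its difference was 0.57 with a normexp background correction, 0.74 after quantile normalization and 0.78 with each array's 5′ to 3′ contrast as a covariate. Over all 17 alternatives it lay between 0.57 and 0.97.

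**Figure D1:**
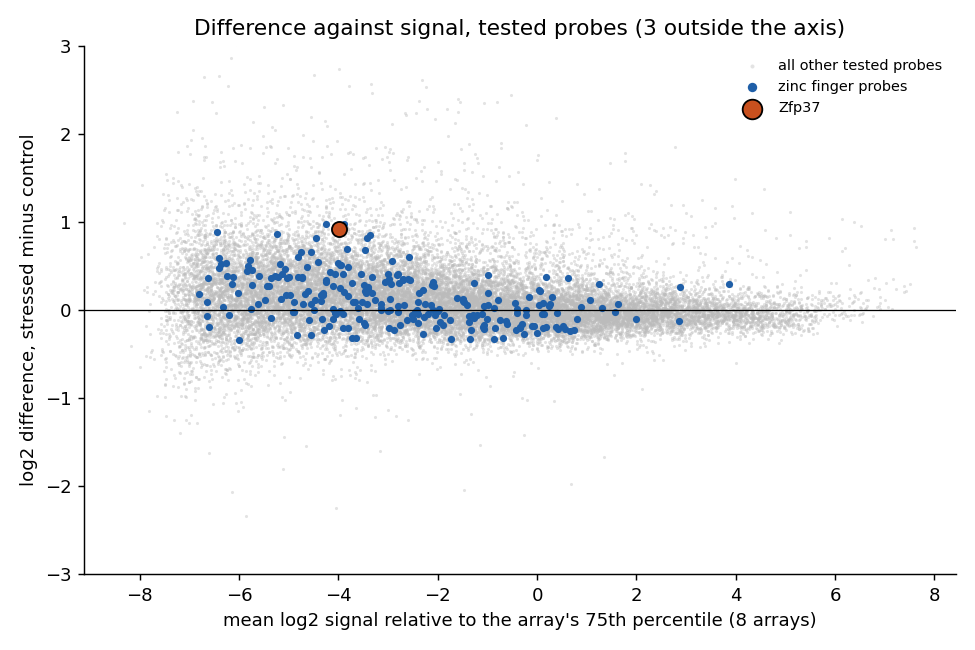
Log2 difference, stressed minus control (vertical axis), against mean log2 signal over 8 arrays (horizontal axis) for each tested probe. The 246 zinc finger probes are blue over all other tested probes in grey, 3 probes lie outside the axis, and Zfp37 (orange) sits at 0.92 on the upper side of a cloud that is wider at low signal.

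The place of control replicate 2 was examined in the members with the larger differences. In 75 zinc finger genes the stressed mean and the mean of control replicates 1, 3 and 4 were at least 0.3 apart. On a scale where 0 is the mean of those 3 controls and 1 that of the stressed rats, control replicate 2 lay above 0.5 in 64 of the 75 genes, with a median of 1.24. It lay above 0.5 in 53 of the 62 that were higher in stressed rats and in 11 of the 13 that were lower. Zfp37, at 0.23, was the seventh lowest of the 75. These genes were picked by their own group difference, so the counts are a description.

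At a false discovery rate (FDR) below 0.1, limma with Benjamini-Hochberg adjustment over all tested probes called 7 of the 205 zinc finger genes (3.41%). The share over all 20686 gene names was 3.65%. The 7 include Zfp37, which was chosen for this very contrast and whose call is no evidence about it. Of the 7 genes, 6 were higher in stressed rats, where 2.62% of all names were, and 1 was lower, where 1.03% were. Apart from Zfp37, the member that passed an FDR of 0.05 was Zfp263, where 0.44% of all names passed. The family as a whole therefore had calls at about the rate of the array. At an unadjusted p below 0.05 there were 50 genes (24.4%, against 19.9% of all names). In 30 genes (14.6%, against 12.3%) the groups did not overlap, 15 higher and 15 lower in stressed rats. The difference was above 0 in 123 genes (60%, against 57.3%), with a median of 0.058 beside 0.045 over all names. Counted over probes, 3.74% of all tested probes were called.

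Zfp263, a zinc finger gene with a SCAN and a KRAB domain, rose most among the called genes. Its log2 signal was -3.86, -3.84, -3.68 and -3.68 in stressed replicates 1 to 4, and -5.04, -4.51, -4.72 and -4.71 in control replicates 1 to 4. The groups lie well apart and control replicate 2 is again the highest control. The difference was 0.98 (SE 0.12, limma adjusted p = 0.0303), measured by a single spot. Leaving out each array in turn kept the call in 4 of 8 fits, with adjusted p from 0.00098 to 0.149. The calls were lost without stressed replicate 1 (adjusted p = 0.119), 2 (0.131) or 3 (0.103) and without control replicate 3 (0.149). With normexp the difference of Zfp263 was 0.57 and was not called (adjusted p = 0.202).

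Znf652, which codes for a DNA-binding repressor, rose by 0.66 (SE 0.13, limma adjusted p = 0.0697). Its log2 signal was -4.40, -4.47, -4.25 and -4.53 in stressed rats and -5.24, -4.72, -5.15 and -5.19 in control rats. Control replicate 2 alone came within 0.5 of the stressed mean. Znf652 was called in 7 of the 9 alternatives that keep all arrays, with adjusted p from 0.00083 to 0.434. Its difference was 0.35 with normexp and 0.38 with the 5′ to 3′ covariate. Znf287, another SCAN and KRAB gene, rose by 0.38 (SE 0.086, adjusted p = 0.0870), from between -5.02 and -4.78 in control rats to between -4.67 and -4.44 in stressed rats. Zfp800 rose by 0.41 (SE 0.10, adjusted p = 0.0982), from between -5.55 and -5.14 to between -5.01 and -4.86. In these last 2 genes the gap between the groups is narrow. After quantile normalization neither Znf287 (0.18, adjusted p = 0.480) nor Zfp800 (0.22, adjusted p = 0.529) was called, and over the 9 alternatives that keep all arrays the adjusted p ranged from 0.0062 to 0.744 and from 0.0067 to 0.736.

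Zfp207, whose product binds microtubules and the checkpoint protein Bub3, was the brightest of the genes that rose. It measured 0.26, 0.39, 0.44 and 0.39 in stressed rats and -0.18, 0.03, -0.02 and 0.13 in control rats. The difference was 0.38 (SE 0.086, limma adjusted p = 0.0865). Znf580, a small C2H2 gene, was the only one of the called members that was lower in stressed rats. Its log2 signal was -1.03, -1.09, -1.02 and -1.02 in stressed rats and -0.84, -0.69, -0.60 and -0.71 in control rats, a difference of -0.33 (SE 0.071, limma adjusted p = 0.0809). All 4 stressed rats lie below all 4 control rats in a gene where control replicate 2 is not set apart. Znf652, Znf287, Zfp800, Zfp207 and Znf580 were called in 1 of the 8 fits that leave out an array, that without control replicate 2. Without any other array, stressed or control, their adjusted p lay between 0.131 and 0.261, while the differences kept their direction.

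**Figure D2:**
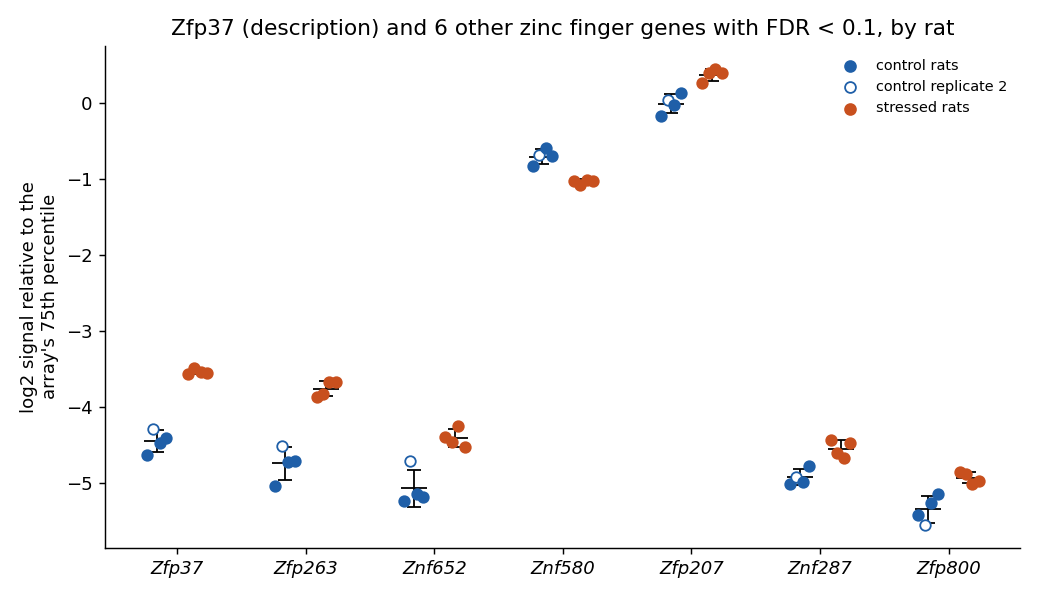
Log2 signal relative to the array's 75th percentile (vertical axis) for each rat in Zfp37, shown as a description, and the 6 other zinc finger genes called at an FDR below 0.1, with the mean and SD of each group in black (n = 4). Control replicate 2 is an open circle. In each of the 7 the groups stay apart, and the stressed rats are lower only in Znf580.

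Leaving out control replicate 2 changed the number of calls more than leaving out any other array. Without it limma called 106 of the 205 zinc finger genes (51.7%), 69 higher and 37 lower in stressed rats. Over all names the shares were then 40.6% in either direction, 27.8% higher and 12.8% lower. Leaving out any of the other 7 arrays left between 0 and 2 zinc finger genes called (0 to 0.976%, with 0 to 0.285% of all names). The split of the calls also moved with the scaling. After quantile normalization 13 genes were called (6.34%, against 4.94% of all names), 6 higher and 7 lower, with 2.72% and 2.22% of all names. The median of the 205 genes was then -0.034 and that of all names -0.016, so the direction of the family's median depends on the scaling.

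Among the 3 largest rises and 3 largest falls, Znf608, Zfp563 and Zfp94 were not called. In Znf608 1 rat moved the control mean. Znf608 measured -3.23, -3.46, -3.51 and -3.37 in stressed rats and -4.69, -3.40, -4.91 and -4.49 in control rats. Control replicate 2 lay among the stressed rats, and the difference of 0.98 had an SE of 0.30 (limma adjusted p = 0.152). Without control replicate 2 it was 1.31 with an adjusted p of 0.00083. The largest fall was in Zfp563, a dim gene at -0.34 (SE 0.21, adjusted p = 0.379), which measured between -6.68 and -5.86 in stressed rats and between -6.24 and -5.55 in control rats. Zfp94 differed by -0.33 (SE 0.14, adjusted p = 0.237). The groups overlap widely in Zfp563 and by a hair in Zfp94, where the highest stressed value was -1.37 and the lowest control value -1.38.

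The 5 brightest members differed by at most 0.30 and none was called. Znf592, which codes for a partner of a chromatin reader complex, was the brightest, at 4.24, 4.07, 3.90 and 3.88 in stressed rats and 3.64, 4.30, 3.45 and 3.50 in control rats. Its difference was 0.30 (SE 0.19, limma adjusted p = 0.405), and the highest of the 8 values is that of control replicate 2. Zfp853 behaved alike, with a difference of 0.26 (adjusted p = 0.312) and control replicate 2 at 3.14 where the other control rats lay from 2.60 to 2.63. Znf553 differed by -0.12, Zfp385a, which codes for an RNA-binding zinc finger protein, by -0.10, and Zfp364, a RING ubiquitin ligase, by 0.07.

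The members Zfp36, Zfp36l1, Zfp36l2 and Zfp36l3 are RNA-binding CCCH proteins of the tristetraprolin kind, which bring mRNA with AU-rich elements to decay. None of the 4 was called and the groups overlap in each. Zfp36l1 had the largest difference, 0.56 (SE 0.26, limma adjusted p = 0.268), with values from -3.09 to -2.14 in stressed rats and from -3.52 to -2.82 in control rats. Zfp36, Zfp36l2 and Zfp36l3 differed by -0.08, 0.02 and 0.12, and each of these 3 turned its sign under at least 1 alternative.

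A list of 17 names under the heading neural and glial development had 15 on the array and 14 tested. Zfp191 and Zfp24, the same gene, are both among the 17. The part of each member in such development was not examined. Of the 14, none was called and 6 had an unadjusted p below 0.05 (42.9%, against 19.9% of all names). The median was 0.14, beside 0.045 over all names, and 9 of the 14 differences were above 0. Zfp and Znf names were taken as the same gene for this list and the next. Znf644 differed by -0.24 (SE 0.070, limma adjusted p = 0.134). Its 4 stressed rats (0.47 to 0.61) lie below its 4 control rats (0.73 to 0.85). Zfp335, a regulator of neural progenitors, differed by -0.20 (adjusted p = 0.173), again without overlap. Znf521, a factor of stem and progenitor cells, differed by -0.32 (adjusted p = 0.175) with overlap. Zfp706 differed by 0.30 (adjusted p = 0.198), also with overlap. Zfp191, which central myelination requires, differed by 0.37 (adjusted p = 0.236), and Zfp238, a repressor in neuronal differentiation, by 0.88 (adjusted p = 0.265) at a low signal of -6.87 in control rats.

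Another list held 18 genes under the heading general promoter and chromatin factors, of which 17 were on the array and 16 tested. The 2 called (12.5%, against 3.65% of all names) were Zfp207, higher, and Znf580, lower, and the median was 0.009. The list is mixed, since it holds Zfp207, described above for its binding of microtubules. The 12.5% is therefore not the share of a single function. Zfp110, which codes for a protein that binds the neurotrophin receptor p75, differed by 0.34 (SE 0.089, limma adjusted p = 0.113). Zfp148, a factor of GC-rich promoters, differed by -0.21 (adjusted p = 0.201).

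The partners through which KRAB zinc finger proteins repress were examined as a list of 32 genes, of which 29 were on the array and 26 tested. Of these, 3 were called (11.5%, against 3.65% of all names), all higher in stressed rats, as were 2.62% of all names, and the median of the 26 was 0.00. Dnmt3a, a de novo DNA methyltransferase, measured -3.25, -2.89, -3.65 and -3.23 in stressed rats and -5.83, -3.90, -5.19 and -5.18 in control rats, a rise of 1.77 (SE 0.38, limma adjusted p = 0.0809). Control replicate 2 lies between the groups. Cbx1, the heterochromatin protein HP1 beta, rose by 0.50 (SE 0.11, adjusted p = 0.0848), from between -0.86 and -0.66 to between -0.51 and -0.03. Rbbp4, a histone chaperone of the NuRD complex, rose by 0.56 (SE 0.13, adjusted p = 0.0853), and of its control values of 1.35, 1.85, 1.35 and 1.39 that of control replicate 2 is nearest to the stressed rats (1.95 to 2.13). Leaving out any array but control replicate 2 ended all 3 calls, with adjusted p from 0.120 to 0.252. Without control replicate 2, 13 of the 26 genes were called, and 40.6% of all names. Trim28, the hub of this machinery, was not called. It differed by -0.25 (SE 0.076, adjusted p = 0.149), with its 4 stressed rats below its 4 control rats. The other heterochromatin proteins Cbx3 and Cbx5 differed by 0.15 and 0.02, and neither was called. Of the H3K9 methyltransferases tested, Ehmt1 and Ehmt2 differed by -0.14 and -0.23 and the dim Suv39h1 and Suv39h2 by 0.61 and 0.68, also with no call.

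Genes with related names were counted in the same way, beside 3.65% called and a median of 0.045 over all names. Of 28 tested Zbtb genes 1 was called, with a median of 0.063, of 8 Zscan and Zkscan genes none, with a median of 0.091, and of 15 Klf genes 1, with a median of -0.067. Among 68 genes of other zinc-binding folds 2 were called, with a median of 0.074. On rn4, 54 of the 205 genes lie on chromosome 1, with 1 called, and 20 on chromosome 10, with 4 called, namely Zfp207, Zfp263, Znf287 and Znf652. Of all names, on any chromosome, 3.65% were called, and the share among all names on chromosome 10 was not counted. Chromosomes were not among the comparisons set out for this family. Chromosome 10 was picked out by its count, and no test was made of it.

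Where a probe lies and how bright it is went with its difference. The zinc finger probes lie far along their transcripts, at a median Start of 2118 beside 1204 over all tested probes. They are dimmer too, with a median log2 signal of -2.70 over the 205 genes beside -1.93 over all names. The median difference of zinc finger probes was 0.21 for a Start below 500 (n = 7), 0.12 from 500 up to 1500 (n = 54), 0.10 from 1500 up to 3000 (n = 124) and -0.02 from 3000 on (n = 61). The same medians over all tested probes were 0.12, 0.07, 0.03 and 0.00. By quartile of signal, from dim to bright, the zinc finger medians were 0.30 (n = 59), 0.12 (n = 99), -0.06 (n = 68) and -0.03 (n = 20), and those of all probes 0.19, 0.15, 0.03 and -0.03. The difference thus fell with each measure taken alone, in the family as on the whole array. Within the dimmest quartile of signal it did not fall steadily with Start. The zinc finger medians there, in order of Start, were 0.27 (n = 3), 0.41 (n = 10), 0.28 (n = 33) and 0.30 (n = 13). Those of all tested probes were 0.21, 0.18, 0.18 and 0.20. In the other quartiles the medians of all tested probes fell from each Start range to the next. Over the 246 zinc finger probes Spearman's rho between difference and Start was -0.19, and between difference and signal -0.44. Over all 23678 tested probes these were -0.15 and -0.26. The probes share the same 8 arrays, so these coefficients are descriptions and have no p-value. Base composition went less with the difference, with a rho of 0.09 for GC content in the family and a median GC of 45% in both sets.

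**Figure D3:**
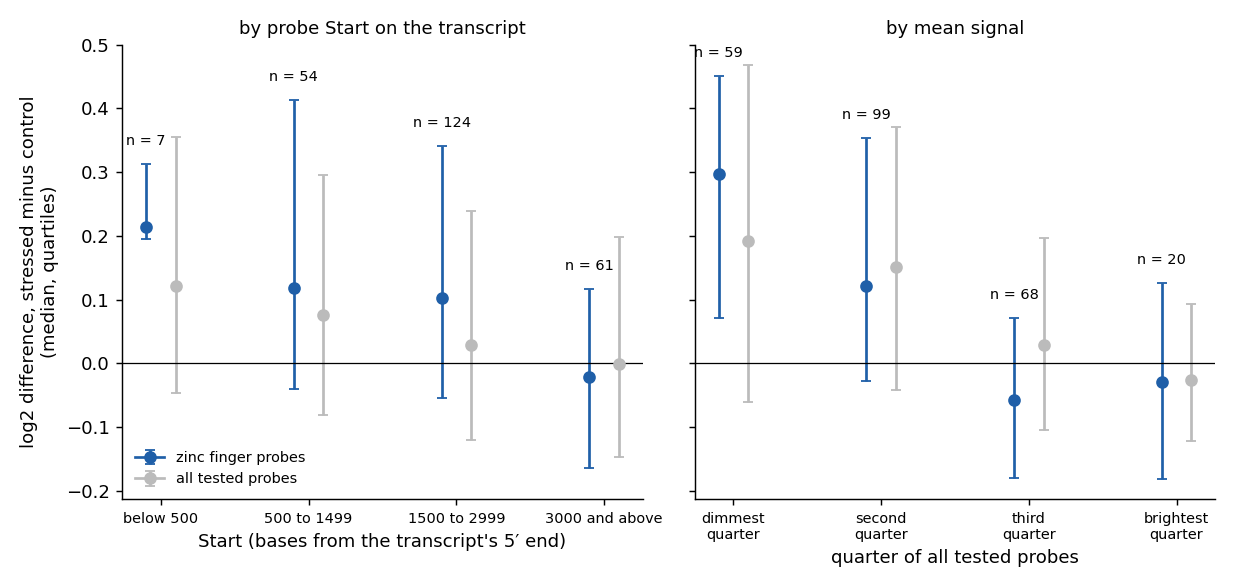
Median log2 difference, stressed minus control, with quartiles as bars, by Start in bases from the transcript's 5′ end (left) and by quartile of mean signal (right), for zinc finger probes (blue) and all tested probes (grey). The zinc finger medians go from 0.21 to -0.02 along the transcript and from 0.30 to -0.03 from dim to bright.

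Transcripts with 2 tested probes allow the position to be compared within a gene. In 31 zinc finger transcripts a pair of probes was at least 300 bases apart, with a median distance of 1629 bases. The 5′ probe had the higher stressed minus control difference in 23 of the 31 (74.2%) and was the dimmer of the pair in 26. Among 1856 pairs of other genes the 5′ difference was higher in 80.4%. The median difference was 0.30 at the 5′ probe and 0.03 at the 3′ probe in the family, and 0.27 and -0.02 in other genes. The same transcript could therefore read as higher in stressed rats or not, depending on the probe. The poly(A) signal letters AATAAA, which often stand close to the end of a transcript, were in 1 of the 31 5′ probes and 7 of the 31 3′ probes. Over the 246 tested zinc finger probes the median difference was 0.00 in the 25 with AATAAA and 0.10 in the 221 without it. Zfp37 has 1 probe, so it could not be compared in this way.

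Zfp385a had the widest pair. The difference was 0.70 at its 5′ probe (Start 980, limma adjusted p = 0.246) and -0.10 at its 3′ probe (Start 2381, adjusted p = 0.368). Taken within each rat, 5′ minus 3′, the values were -5.64, -5.19, -5.32 and -5.52 in stressed rats and -6.91, -5.40, -6.53 and -6.01 in control rats. Only control replicate 2 overlaps the stressed rats. Zfp426 differed by 0.51 at Start 1393 and by -0.17 at Start 2736, and Znf23 by 0.41 at Start 1943 and by -0.22 at Start 4548. The 3′ probe of Zfp426 shares a run of 17 bases with a probe under another gene name, so its signal may be shared. The opposite order was widest in Znf608 (0.37 at the 5′ probe, 0.98 at the 3′ probe) and Znf593 (-0.19 and 0.41). Of the 10 probes of these 5 genes 1 was called, the 3′ probe of Znf593 (adjusted p = 0.0867), which is not that gene's brightest and so is not among the 7.

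**Figure D4:**
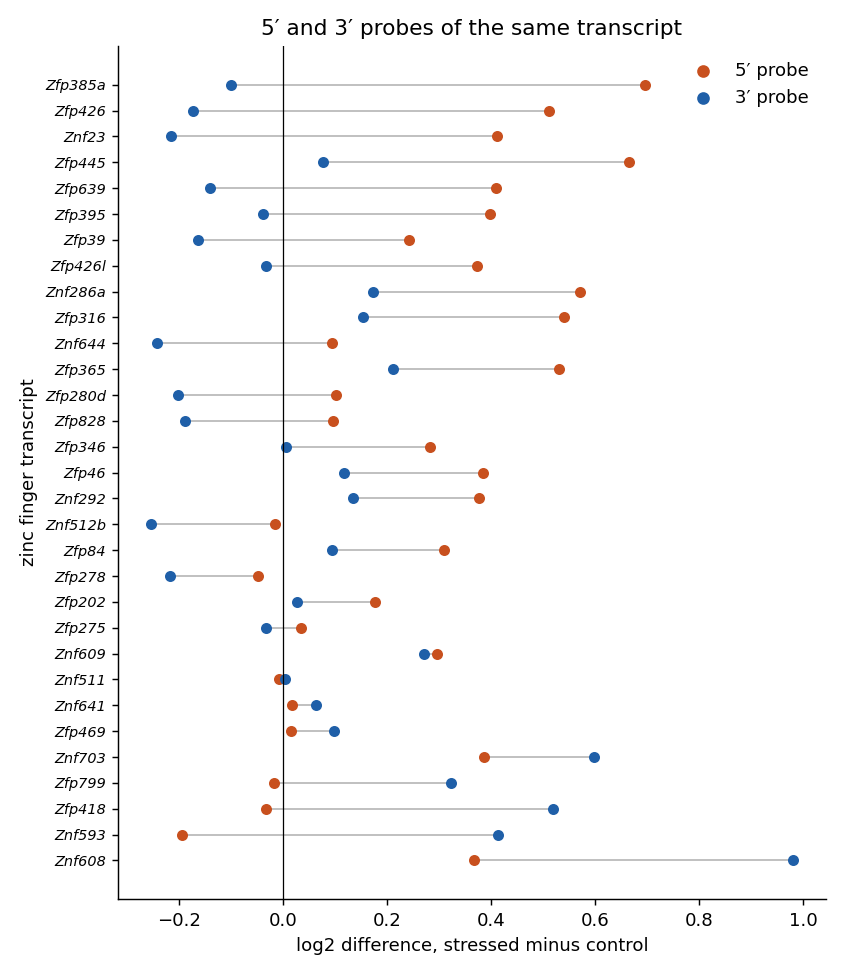
Log2 difference, stressed minus control (horizontal axis), at the 5′ probe (orange) and the 3′ probe (blue) of each of 31 zinc finger transcripts, ordered by the gap between them. The 5′ probe lies to the right in 23 of the 31, from Zfp385a at the top, and Znf608 at the bottom has the widest gap the other way.

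The same contrast can be read per rat as the median over the 31 transcripts of the 5′ minus 3′ signal, after each transcript's mean over the 8 arrays was taken away. It was 0.16, 0.09, 0.13 and 0.07 in stressed replicates 1 to 4 and -0.21, 0.06, -0.28 and -0.16 in control replicates 1 to 4. Over all transcripts with such pairs it was 0.17, 0.15, 0.17 and 0.09 in stressed rats and -0.30, 0.22, -0.30 and -0.18 in control rats. In both sets control replicate 2 is the only control rat above 0, and over all transcripts it is the highest of the 8. The part of this contrast in the differences above was not tested. With it as a covariate 31 zinc finger genes were called in place of 7 (15.1%, with 9.88% of all names), the family's median was -0.039, and the difference of Zfp37 was 0.78. Zfp207 (limma adjusted p = 0.132) and Znf287 (adjusted p = 0.119) were not among the 31, while Zfp263, Znf652, Znf580 and Zfp800 were.

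The family's level by rat differed more among its dim members than among its bright ones. As the median deviation of the 205 genes from each gene's mean, it was 0.06, 0.03, 0.02 and 0.01 in stressed replicates 1 to 4 and -0.10, 0.10, -0.06 and -0.04 in control replicates 1 to 4. In the members under the family's median signal it was 0.05 to 0.13 in stressed rats, -0.25, -0.20 and -0.11 in control replicates 1, 3 and 4, and 0.18 in control replicate 2. In the members above that median all 8 arrays lay between -0.05 and 0.07.

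**Figure D5:**
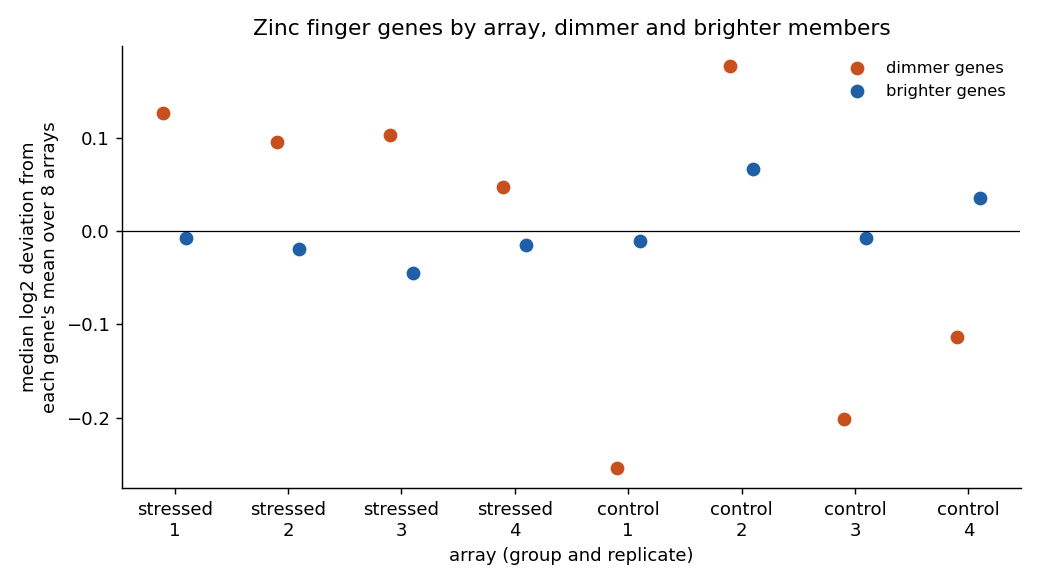
Median log2 deviation of zinc finger genes from each gene's mean over 8 arrays (vertical axis), for each array (horizontal axis), in members below (orange) and above (blue) the family's median signal. The dimmer members are above 0 in the 4 stressed rats and in control replicate 2, up to 0.18, and below 0 in the other 3 control rats.

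RefSeq promoters, from 250 bases before to 50 after the gene's start on GRCr8, were found for 170 of the 216 genes. They had a median of 18 CpG sites and a GC content of 58.3%, beside 7 and 52.3% over 27457 promoters. A YY1-type motif, AANATGGCNGC on either strand, was in 7 of the 170 (4.12%) and in 562 of all promoters (2.05%). It is shown because Zfp37 and Zfp207, both higher in stressed rats, are among the 7. The other 5 were not called and went both ways, with differences of -0.17 in Zfp472, 0.29 in Zfp68, 0.51 in Znf507, 0.60 in Znf763 and -0.22 in Znf777. The called genes Zfp263, Znf652, Znf580 and Zfp800 do not have the motif in this window, and no promoter was found for Znf287. Capitals mark the motif, at chr5:80654272-80654300 on the minus strand for Zfp37 and chr10:65883497-65883525 on the plus strand for Zfp207, both on GRCr8.
Zfp37 promoter: atccatgccAAGATGGCCGCgcccacaag
Zfp207 promoter: taaccccatAAGATGGCGGCagcgcctct
The glucocorticoid response element in the form GNACANNNTGTNC was in 0 of the 170 promoters and in 116 of all promoters (0.422%). A match is a run of letters in this window and was not measured as a bound site.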

How the data were processed

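The intensity values used here are those the authors deposited for each spot of the 8 arrays, made with Agilent Feature Extraction 10.7.3.1, which subtracts and detrends the background within an array. Per the file headers no scaling between arrays was applied. A table of the same intensity values, rounded, was also deposited. The study's methods name dChip and give neither the normalization nor the test.

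Control spots (4259) were left out, spots flagged as outliers were set to missing, and log2 intensity was scaled by each array's 75th percentile. Spots of a probe were averaged, and probes well above background (at least 0.5 of their spots) on 4 or more of 8 arrays were tested with limma 3.58.1 (R 4.3.3, lmFit and eBayes, no covariate), adjusted by Benjamini-Hochberg over all 23678 probes, after the fit was tested on simulated data. Groups are those of the labels, stressed and control, 4 rats each. Arrays give no counts, so precision is limited by their number and by how far a probe lies over background.

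The named genes are Zfp37, members called at an FDR below 0.1 (up to 15), the 5 brightest, the 3 largest falls and rises, the 3 widest probe pairs, up to 4 of each role list and up to 6 called KRAB partners. Zfp191, Zfp238, Znf593, Trim28, Cbx3, Cbx5, Ehmt1, Ehmt2, Suv39h1, Suv39h2 and the genes with the promoter motif were added once their values had been seen. The members, lists and rules were chosen with earlier results of these data known. Alternatives tried were normexp (offset 50) for the background, quantile normalization, the values deposited as a rounded table, other filters and probes, a variance trend, array weights, a replicate block, the 5′ to 3′ contrast as a covariate, and leaving out each array. Motifs were searched as exact letters, N standing for any base, and were chosen with the results known. Marker lists of red blood cells and microglia were also examined, with no gene called.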

Additional observations from a re-analysis of the deposited data

Results flagged for a closer look

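In groups of 4 rats, the gap of the highest or lowest rat to its neighbour, divided by the group's range, was examined in 64 groups of named genes, of which chance alone would single out about 3.2 (1 in 20). It passed Dixon's critical value in 2. In Zfp853 in control rats the ratio was 0.930, with control replicate 2 at a log2 signal of 3.14 above the other 3. In Rbbp4 in control rats it was 0.905, with control replicate 2 at 1.85. Both are the same rat, and both values lie on the side of the stressed rats.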

How the results depend on the processing

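The number of zinc finger genes called, 7, was 0 with normexp (0.875% of all names called) and with the replicate block (0%), 11 with the filter on all 8 arrays (5.45%, all names 4.80%), 13 after quantile normalization (6.34%, all names 4.94%), 16 without a filter (7.41%, all names 9.82%), 31 with the 5′ to 3′ covariate (15.1%, all names 9.88%) and 114 with array weights (55.6%, all names 49%), which gave control replicate 2 a weight of 0.107. Leaving out 1 array gave 0 to 106 (0 to 51.7%, all names 0 to 40.6%). It stayed within 1.5 times of 7 with the deposited table, the variance trend and all probes. The family's median of 0.058 became -0.034 after quantile normalization and -0.039 with the covariate, and leaving out 1 array gave 0.034 to 0.091. The difference of Zfp37 was 0.57 with normexp, 0.74 after quantile normalization and 0.78 with the covariate, and 0.86 to 0.97 leaving out 1 array. The stressed minus control difference of the 5′ minus 3′ contrast, 0.26, was 0.15 after quantile normalization and 0.093 with the covariate, and 0.22 to 0.33 leaving out 1 array. The covariate is itself this contrast over all transcripts, zinc finger pairs included. A smaller value with it was therefore built in. The 3 calls among KRAB partners became 0 with normexp and the block, 5 with the variance trend and the covariate, 6 without a filter and 14 with array weights, and 0 to 13 leaving out 1 array. With the covariate Rbbp4 stayed called at 0.28 (limma adjusted p = 0.0821). Dnmt3a at 0.92 (adjusted p = 0.118) and Cbx1 at 0.37 (adjusted p = 0.157) were then not called. Some single genes turned sign. With normexp, Zfp563 was 0.044 and Zfp36 0.079. With array weights Zfp36l3 was -0.026. With the covariate, Znf592 was -0.13, Zfp853 -0.040, Zfp36 0.22 and Zfp36l2 -0.047. Leaving out 1 array gave -0.22 (without control replicate 2) to 0.027 (without stressed replicate 1) for Zfp36, -0.046 (without control replicate 3) to 0.071 (without control replicate 1) for Zfp36l2 and -0.0068 (without control replicate 2) to 0.26 (without stressed replicate 1) for Zfp36l3. The cause was not tested in any of these. Same-numbered rats correlated in their deviations at 0.095, 0.120, -0.087 and 0.305, so the numbers were not taken as pairs, and the replicate block is given for completeness. A second probe of Zfp37 was not run, since 1 probe was found.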
